A study of Mus musculus with 8 samples.

Results

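A set of 10 genes that are used in developmental biology to follow the connective tissue of the lung were described in bulk RNA-seq of 4 mouse tissues. They are the T-box genes Tbx2, Tbx3, Tbx4 and Tbx5, the forkhead genes Foxf1 and Foxf2, the hedgehog response genes Gli1 and Hhip, and the secreted ligands Wnt2 and Bmp4. They were chosen by gene symbol, with earlier results of these data known, and make up 10 of the 52195 genes in the deposited table. The samples were kidney, liver, lung and small intestine of male mice of the inbred strain C57BL/6 (C57BL/6J in the study's methods), 6 to 10 weeks old, with 2 libraries of polyadenylated RNA per tissue and 8 in all. The libraries of a tissue came from separate mice. Whole tissue was ground, so each value is a mean over all cells of the organ.

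In the embryo, the epithelium of the lung bud secretes the hedgehog ligand Shh, and the mesenchyme around it answers through the receptor Ptch1 and the Gli transcription factors, raising Gli1, Hhip and Ptch1 and acting on the forkhead genes. Tbx4 and Tbx5, together with Wnt2, belong to the mesenchymal programme that induces and branches the lung, while Bmp4 signals between both layers. Foxf1 is also known from the mesenchyme of the gut and from lung endothelium, and Tbx5 from the heart, so none of these genes marks a single cell type.

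The genes lie partly in pairs on the genome, here in build GRCm38 with gene spans from GENCODE M21. Tbx2 (ENSMUSG00000000093.6, chr11:85832551-85841948) and Tbx4 (ENSMUSG00000000094.12, chr11:85886422-85916097) are both on the plus strand, 44.5 kb apart. Tbx3 (ENSMUSG00000018604.18, chr5:119670669-119684724) and Tbx5 (ENSMUSG00000018263.11, chr5:119832668-119885219) form a second pair, 148 kb apart and also on the plus strand. Foxf1 (ENSMUSG00000042812.5, chr8:121084386-121088144, plus strand) lies 1275 bases from Fendrr, a long non-coding RNA gene on the opposite strand. The other members are Foxf2 (ENSMUSG00000038402.2, chr13:31625816-31631403, plus strand), Gli1 (ENSMUSG00000025407.7, chr10:127329882-127341974, minus strand), Hhip (ENSMUSG00000064325.4, chr8:79965851-80058006, minus strand), Wnt2 (ENSMUSG00000010797.6, chr6:17988940-18030585, minus strand) and Bmp4 (ENSMUSG00000021835.15, chr14:46383520-46390669, minus strand).

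Promoter entries of RefSeq (GRCm38.p6) were found for 5 members, Tbx4, Foxf2, Hhip, Wnt2 and Bmp4, and for Fendrr. The 250 bases before the start site are printed for 4 genes that were high in lung, from 5′ to 3′ on the gene's strand, because they show how unlike these promoters are in base composition. Capitals mark motif matches. The motifs searched on both strands were GACCACCCA for the Gli factors, AGGTGTGA for T-box factors, GTAAACA for forkhead factors and TATAAA for the TATA box, and the shorter Gli core CCACCC, which lies within the Gli motif, was counted without capitals. The windows are chr8:121083111-121083360 for Fendrr, chr13:31625566-31625815 for Foxf2, chr8:80058009-80058258 for Hhip and chr11:85896515-85896764 for Tbx4, whose RefSeq start lies inside the GENCODE span.
Fendrr: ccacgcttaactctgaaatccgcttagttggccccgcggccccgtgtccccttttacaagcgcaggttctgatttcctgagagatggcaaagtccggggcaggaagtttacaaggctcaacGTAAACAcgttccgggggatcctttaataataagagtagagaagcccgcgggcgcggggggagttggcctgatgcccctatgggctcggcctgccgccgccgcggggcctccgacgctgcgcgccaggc
Foxf2: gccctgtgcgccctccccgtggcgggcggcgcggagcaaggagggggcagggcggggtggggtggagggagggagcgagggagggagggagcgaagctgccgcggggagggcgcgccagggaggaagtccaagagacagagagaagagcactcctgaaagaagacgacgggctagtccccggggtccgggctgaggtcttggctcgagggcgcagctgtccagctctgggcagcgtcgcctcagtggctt
Hhip: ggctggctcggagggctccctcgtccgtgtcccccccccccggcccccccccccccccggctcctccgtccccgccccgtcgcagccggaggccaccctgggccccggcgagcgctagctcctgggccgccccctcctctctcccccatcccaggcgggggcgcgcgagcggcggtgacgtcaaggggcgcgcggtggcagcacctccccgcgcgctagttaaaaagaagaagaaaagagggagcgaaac
Tbx4: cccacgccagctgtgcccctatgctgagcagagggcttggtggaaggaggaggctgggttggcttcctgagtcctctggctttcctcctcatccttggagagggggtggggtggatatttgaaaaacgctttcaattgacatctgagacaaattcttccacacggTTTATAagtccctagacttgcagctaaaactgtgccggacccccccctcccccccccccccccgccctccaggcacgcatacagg

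The Fendrr window held 1 forkhead motif, at position -129 from the start, a motif that 3.17% of 32851 promoter windows of the same length hold. The Tbx4 window held 1 TATA motif in reverse, TTTATA, at position -85, against 12.4% of all windows. The Gli motif (0.225% of all windows) and the T-box motif (1.12%) were in none of the 6 windows, which says only that these letters are not there. The Gli core was there 2 times in Tbx4, 2 times in Foxf2 and 1 time in Hhip, and 28.1% of all windows hold it. The windows differed in composition. GC content was 76.0% for Hhip and 71.6% for Foxf2, 63.6% for Wnt2, 63.2% for Bmp4, 62.0% for Fendrr and 58.4% for Tbx4, with a median of 52.4% over all windows. The ratio of observed to expected CpG was between 0.724 and 0.958 for Foxf2, Wnt2, Hhip and Fendrr, but 0.451 for Bmp4 and 0.285 for Tbx4, around a median of 0.374.

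Values are FPKM as deposited, fragments scaled for transcript length and library size, which allows levels to be compared between genes. Low values move in steps of 1 read, which gave the read numbers, and the libraries held between 9164169 and 21444625 reads on genes. A count of 3 reads, taken here as the floor of detection, was worth between 0.0154 and 0.146 FPKM for the 10 genes, depending on the gene and the library. The floor and all read intervals cover counting error only. Differences were tested with limma on log2(FPKM + 1), a scale that understates the change of low genes, over 16328 genes with an FPKM of at least 1 in at least 2 libraries. Calls required an adjusted p (Benjamini-Hochberg, over all genes tested) below 0.05 together with a log2 difference of more than 1 in size. As deposited, the lung values of all genes lay higher, with a median log2 difference of 0.82 between lung and the mean of the other tissues. The differences of the 10 genes in lung, and the counts of the lists, are therefore also given after median-of-ratios scaling between libraries, under which that median was -0.02. In ground tissue, fewer cells of a type and less RNA per cell cannot be told apart.

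**Figure D1:**
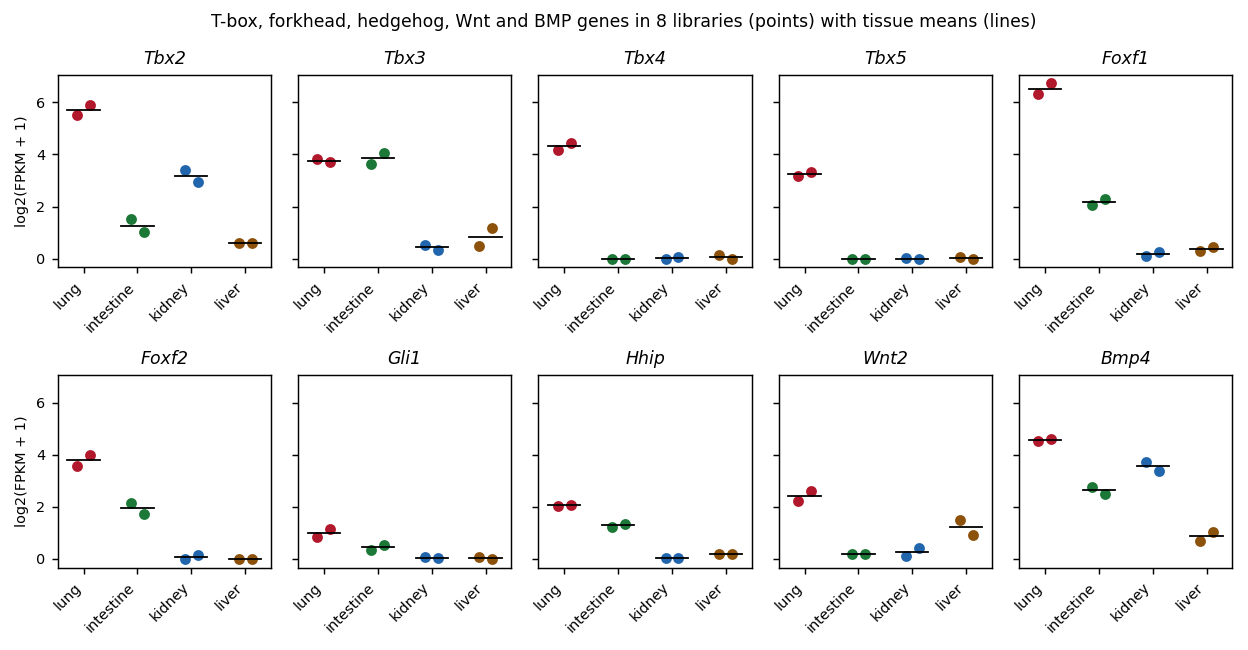
Level of each of the 10 genes as log2(FPKM + 1) (vertical axis) in the 2 libraries of each tissue (points), with the tissue mean as a line. As deposited, lung is the highest tissue for 9 of the 10 genes, while Tbx3 is as high in small intestine. With median-of-ratios scaling, lung and kidney are level for Bmp4 and lung and liver for Wnt2.

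Tbx4 and Tbx5, the T-box factors of limb and lung fields, were detected in lung and at or near the floor elsewhere. Tbx4 reached an FPKM of 17.0 and 21.0 in the lung libraries, from 564 and 887 reads. It was at 0 in both small intestine libraries, at 0 and 0.0340 in kidney, and at 0.0963 and 0 in liver, which together make 5 libraries with at most 2 reads and 1 with 3. Tbx5 was at 7.93 and 8.95 in lung, with 362 and 520 reads, against 0.00997 and 0 in kidney, 0.0467 and 0 in liver, and 0 in both small intestine libraries. The lung libraries thus stand apart from all others for both genes, and the other 3 tissues could not be ordered at this depth. Against a floor of 3 reads over small intestine, lung reads scaled for library depth were 451-fold higher for Tbx4 and 274-fold higher for Tbx5. The log2 difference between lung and the mean of the other tissues was 4.28 ± 0.13 (SE, limma adjusted p = 3.38e-07) for Tbx4 and 3.22 ± 0.10 (limma adjusted p = 3.83e-07) for Tbx5, and 3.44 and 2.45 after median-of-ratios scaling. Both passed the filter on low values through lung alone, so that a difference was bound to appear.

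Tbx2, a T-box repressor that keeps lung mesenchyme dividing, was the most abundant of the 4 T-box genes in lung and in kidney. Its FPKM was 44.7 and 58.6 in lung, 9.49 and 6.61 in kidney, 1.86 and 1.05 in small intestine, and 0.512 and 0.508 in liver. No tissue overlapped with another. The pooled reads, scaled for library depth, were 6.39-fold higher in lung than in kidney (95% exact interval 5.99 to 6.83) and 103-fold higher than in liver. The log2 difference of lung from the mean of the others was 4.03 ± 0.20 (limma adjusted p = 1.96e-06), or 3.02 after scaling, and lung exceeded kidney by 2.55 ± 0.25 (limma adjusted p = 5.97e-05), or 1.48 after scaling. Kidney in turn exceeded small intestine, since the log2 difference of small intestine from kidney was -1.89 (limma adjusted p = 0.000525), and small intestine and liver, neighbours at the low end, differed by 0.68, short of the threshold of 1.

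Tbx3, the close relative of Tbx2, did not share its pattern. Its FPKM was 13.1 and 11.9 in lung and 11.4 and 15.7 in small intestine, against 0.451 and 0.262 in kidney and 0.412 and 1.27 in liver. Lung and small intestine overlapped, as did kidney and liver, and a wide gap lay between the pairs. The log2 difference of lung from small intestine was -0.09 ± 0.27 (limma adjusted p = 0.782), and -0.80 after median-of-ratios scaling. Small intestine exceeded kidney by 3.41 (limma adjusted p = 3.18e-05) and liver by 3.01 (limma adjusted p = 5.15e-05). Lung exceeded the mean of the other tissues by 2.05 ± 0.22 (limma adjusted p = 8.22e-05), or 1.14 after scaling, a difference that rests on kidney and liver. The 2 members of each genomic pair therefore differed from each other. Tbx5 was at 0 in small intestine, where its neighbour Tbx3 had 708 and 1175 reads, and Tbx4 had 2 reads in kidney, where its neighbour Tbx2 had 738 and 415.

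The genes around these pairs were followed in a list of 5, of which 4 were tested. Med13l, a subunit of the Mediator kinase module that lies 905 kb from Tbx3, was called higher in lung by 1.21, but its difference was 0.49 after median-of-ratios scaling and was then not called. Bcas3 beside Tbx2 (0.78), Rbm19 beside Tbx5 (0.46) and Brip1os (0.63) were not called. Brip1 was under the filter, at 0.378 to 0.412 in lung and up to 0.831 in small intestine. These 5 genes were detected in all 4 tissues, whereas Gm11444, between Tbx2 and Tbx4, was listed at 0 in all 8 libraries.

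Foxf1, the forkhead factor of visceral mesenchyme, was the most abundant of the 10 genes in lung. The lung libraries had an FPKM of 79.3 and 105, small intestine 3.14 and 3.95, liver 0.226 and 0.361, and kidney 0.0772 and 0.191. Lung lay above small intestine, and small intestine above the other 2 tissues, with no overlap, while liver and kidney differed by less than the threshold (log2 difference of kidney from liver -0.19, limma adjusted p = 0.528). The pooled reads in lung, scaled for library depth, were 26.2-fold those in small intestine (95% exact interval 22.6 to 30.6). The log2 difference of lung from the mean of the others was 5.62 ± 0.17 (limma adjusted p = 3.42e-07), the largest among the 10 genes on this scale, and 4.69 after median-of-ratios scaling. With a pseudocount of 0.1 that of Tbx4 was larger (7.34 against 7.07), and with limma-voom those of Tbx4 (8.66) and Tbx5 (8.11) were larger than that of Foxf1 (6.28). Small intestine exceeded kidney by 2.0 (limma adjusted p = 0.000136) and liver by 1.81 (limma adjusted p = 0.000196).

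Foxf2, the paralog of Foxf1, also had lung first and small intestine second, at a lower level in lung. Its FPKM was 11.0 and 15.1 in lung and 3.44 and 2.32 in small intestine. It was at 0 in both liver libraries and at 0 and 0.0978 in kidney. The log2 difference of lung was 3.13 ± 0.18 against the mean of the others (limma adjusted p = 3.31e-06), or 2.34 after scaling, and 1.85 ± 0.22 against small intestine (limma adjusted p = 0.000190). Pooled reads in lung, scaled for library depth, were 4.70-fold those in small intestine (95% exact interval 3.91 to 5.68). Against a floor of 3 reads over liver they were 204-fold higher. Foxf1 and Foxf2 have 0.461% and 0.473% of their stretches of 31 exon bases in another of the 10 genes.

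Fendrr, the non-coding RNA that starts beside Foxf1, was at a similar level in lung. It was at 94.0 and 104 in lung, 5.50 and 3.99 in small intestine, 1.18 and 0.525 in liver, and 0.0421 and 0.104 in kidney, the same order of tissues as Foxf1. Its log2 difference in lung was 5.48 ± 0.19 (limma adjusted p = 4.86e-07), or 4.49 after scaling. The other listed neighbours differed from this. Mthfsd, on the other side of Foxf1, was between 0.769 and 2.18 in all libraries and was not called (0.71). Foxl1, a forkhead gene of gut mesenchyme, was between 0.341 and 0.553 in lung and small intestine and under the filter, as was Foxc2. Beside Foxf2, Foxq1 was highest in small intestine (4.15 and 2.77) and did not differ in lung (0.02), and Gmds, an enzyme of fucose metabolism, was at 39.2 and 34.6 in small intestine and 3.97 and 3.39 in lung. Its difference in lung was -0.43, which was not called as deposited but was called lower after median-of-ratios scaling (-1.19). Of the 7 neighbours of the forkhead genes, 5 were tested and 1, Fendrr, was called higher. Irf8, the next protein-coding gene on the Fendrr side, 328 kb from Foxf1, was not in this list. It was at 10.8 and 12.9 in lung and 10.6 and 11.7 in small intestine, against at most 1.02 in kidney and liver.

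Gli1, whose transcription is the usual readout of hedgehog signalling, was the lowest of the 10 genes in lung and did not pass the filter. Its FPKM was 0.779 and 1.19 in lung, from 38 and 74 reads, and 0.278 and 0.460 in small intestine, from 13 and 26 reads. Kidney was at 0.0467 and 0.0231 and liver at 0.0437 and 0. The libraries of lung lay above all others as deposited, and small intestine above kidney and liver. Scaled for library depth, pooled reads in lung were 2.68-fold those in small intestine (95% exact interval 1.84 to 3.96). They were 27.9-fold those in kidney (13.1 to 71.1) and 49.2-fold those in liver, which had 2 reads (13.3 to 411). Without the filter, the log2 difference of lung from the mean of the others was 0.81 ± 0.10 (limma adjusted p = 0.000872), or 0.43 after scaling (limma adjusted p = 0.00723), under the threshold of 1 on a scale that compresses such low values. Against small intestine alone it was 0.53, and 0.18 after scaling (limma adjusted p = 0.236).

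Hhip, the membrane-bound inhibitor that captures hedgehog ligands, also had lung first and small intestine second, with more reads. It was at 3.11 and 3.20 in lung, 1.35 and 1.57 in small intestine, 0.144 and 0.149 in liver, and 0.0308 and 0.0382 in kidney. No tissue overlapped with another. Lung exceeded the mean of the others by 1.54 ± 0.10 (limma adjusted p = 6.16e-06), and by 0.90 after median-of-ratios scaling, where it was no longer called. Against small intestine alone the log2 difference was 0.76 ± 0.12 (limma adjusted p = 0.00109) and not called, or 0.20 after scaling (limma adjusted p = 0.173). Pooled reads in lung, scaled for library depth, were 2.15-fold those in small intestine (95% exact interval 1.86 to 2.49). Small intestine exceeded kidney by 1.25 (limma adjusted p = 0.000109) and liver by 1.10 (limma adjusted p = 0.000180), of which the second was 0.92 after scaling and not called.

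Wnt2, a Wnt ligand of lung mesenchyme that is also made by endothelium of the liver sinusoids, had liver as its second tissue. Its FPKM was 3.72 and 5.17 in lung, 1.84 and 0.902 in liver, 0.0827 and 0.333 in kidney, and 0.142 and 0.157 in small intestine. The lung libraries lay above the liver libraries, and kidney overlapped with small intestine (log2 difference -0.06, limma adjusted p = 0.857). Lung exceeded the mean of the others by 1.87 ± 0.19 (limma adjusted p = 6.36e-05), or 1.02 after scaling. It exceeded liver by 1.22 ± 0.23 (limma adjusted p = 0.00174), but by 0.05 after median-of-ratios scaling (limma adjusted p = 0.890), so the order of lung and liver was set by the scaling. Liver exceeded small intestine, the log2 difference of small intestine from liver being -1.02 (limma adjusted p = 0.00735).

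Bmp4, a ligand of the BMP family, was well above the floor in all 4 tissues. Its FPKM was 22.4 and 23.6 in lung, 12.4 and 9.48 in kidney, 5.80 and 4.67 in small intestine, and 0.631 and 1.08 in liver. The 4 tissues did not overlap as deposited. Lung exceeded the mean of the others by 2.22 ± 0.17 (limma adjusted p = 1.27e-05), or 1.21 after scaling. Lung exceeded kidney by 1.02 ± 0.20 (limma adjusted p = 0.00281), just past the threshold, but the difference was -0.02 after median-of-ratios scaling (limma adjusted p = 0.932). Kidney exceeded liver by 2.68 (limma adjusted p = 3.29e-05), and small intestine exceeded liver by 1.75 (limma adjusted p = 0.000229).

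Across the 10 genes, the share of the summed tissue means that lung held separates the members. It was 99.7% for Tbx4 and for Tbx5, 95.9% for Foxf1, 83.8% for Tbx2 and 81.7% for Foxf2. It was lower for Wnt2 (72.0%), Gli1 (69.8%), Hhip (65.8%) and Bmp4 (57.5%), and 45.9% for Tbx3. These shares are of values as deposited, where the median gene tested lay 0.82 higher in lung (log2), and were not computed after scaling. With median-of-ratios scaling, lung was level with liver for Wnt2 and with kidney for Bmp4. By the second tissue, as deposited, the members fall into those followed by small intestine (Foxf1, Foxf2, Gli1 and Hhip), by kidney (Tbx2 and Bmp4) and by liver (Wnt2), while Tbx3 had small intestine first.

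Of the 10 genes, 9 passed the filter, and 9 of these 9 were called higher in lung against the other tissues' mean (limma). Of the 9, 2 (Tbx4 and Tbx5) reached the filter in lung alone, so that a difference was bound to appear. Over all genes tested, 40.7% were called higher and 8.26% lower, so a call on its own says little about a gene here. After median-of-ratios scaling 8 of the 9 were called, all but Hhip, against 14.6% of all genes. Without the filter the same count was 9 of 10, against 22.1% of the genes above 0 in any library. The median log2 difference over the 10 genes was 2.67, beside 0.82 over all genes tested, and 1.78 beside -0.02 after median-of-ratios scaling. Both lung libraries lay above the other 6 for 9 of the 10 genes as deposited, all but Tbx3, against 37.4% of genes above 0 in any library. After median-of-ratios scaling this was so for 6 of 10, with Gli1, Wnt2 and Bmp4 no longer separate, against 17.6%.

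**Figure D2:**
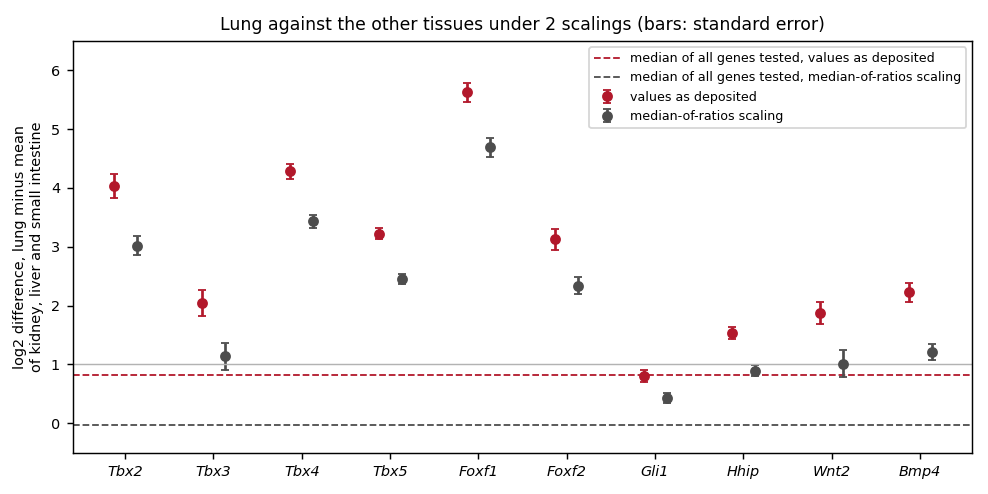
Log2 difference between lung and the mean of kidney, liver and small intestine for each gene (points, with the standard error as bars), for the values as deposited and after median-of-ratios scaling; dashed lines are the median of all genes tested, the grey line is the threshold of 1, and Gli1 comes from the fit without the filter. On this scale Foxf1 is highest at 5.62, and Gli1, which has few reads, is lowest at 0.81.

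Taken by pairs of tissues, lung exceeded kidney for 9 of the 9 genes tested (limma, background 41.4%) and liver for 9 of 9 (background 55.5%). After median-of-ratios scaling each of these counts was 8, without Bmp4 against kidney (background 17.3%) and without Wnt2 against liver (background 19.4%). Lung exceeded small intestine for 7 of 9 (background 30.6%), all but Tbx3 and Hhip, and for 7 after scaling too (background 15%). Between the other tissues, 5 genes differed between small intestine and kidney in either direction (background 29.5%). Tbx3, Foxf1, Foxf2 and Hhip were higher in small intestine and Tbx2 was higher in kidney. Between small intestine and liver 6 differed (background 36.2%), with Tbx3, Foxf1, Foxf2, Hhip and Bmp4 higher in small intestine and Wnt2 higher in liver. Kidney and liver differed for 2, Tbx2 and Bmp4, both higher in kidney (background 23.1%). After scaling, 6 genes differed between small intestine and kidney, with Bmp4 added as higher in kidney (background 28.6%), 5 between small intestine and liver, without Hhip (background 29.8%), and 3 between kidney and liver, with Wnt2 added as higher in liver (background 22%). These comparisons share libraries and are not independent. The lung counts include Tbx4 and Tbx5, which reached the filter in lung alone.

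The rest of the hedgehog pathway was read from a list of 16 genes, of which 10 were tested, 6 called higher in lung and 1 lower. After median-of-ratios scaling 3 were called higher and 1 lower. For this list and those below, 40.7% of all genes tested were called higher in lung and 8.26% lower, or 14.6% higher after scaling. The ligands were divided between the tissues. Shh was at 2.48 and 2.60 in lung and at most 0.197 elsewhere, a log2 difference of 1.69 ± 0.09, and 1.10 after scaling. Ihh, the ligand of gut epithelium, was at 15.9 and 14.4 in small intestine and at 0.0336 and 0.158 in lung, where it was called lower by limma (-1.85 ± 0.16, adjusted p = 2.51e-05, and -2.01 after scaling). Dhh was at 1.26 and 2.04 in lung and at most 0.197 elsewhere (1.25, called as deposited, and 0.73 after scaling, not called). Kidney, where Gli1 and Hhip were near the floor, had Ihh at 1.42 and 2.14.

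Ptch1, the hedgehog receptor and itself a target, was at 2.74 and 4.0 in lung and between 0.529 and 1.53 elsewhere. It was called higher in lung by 1.16 ± 0.21 (limma adjusted p = 0.00157), and differed by 0.38 after median-of-ratios scaling, not called. Gli2 (0.537 and 0.621) and Gli3 (0.342 and 0.487) were low in lung and lower elsewhere, and did not pass the filter. The largest differences of the list were those of Scube2, which helps release lipid-bearing hedgehog ligand from cells, at 7.74 and 6.28 in lung and at most 0.468 elsewhere (2.85, and 2.11 after scaling), and of the co-receptor Boc, at 7.89 and 8.04 in lung (2.69, and 1.90 after scaling). Shh, Dhh and Scube2 reached the filter in lung alone, so that a difference was bound to appear. The co-receptor Gas1 was called higher as deposited (1.46) and not after scaling (0.40).

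**Figure D3:**
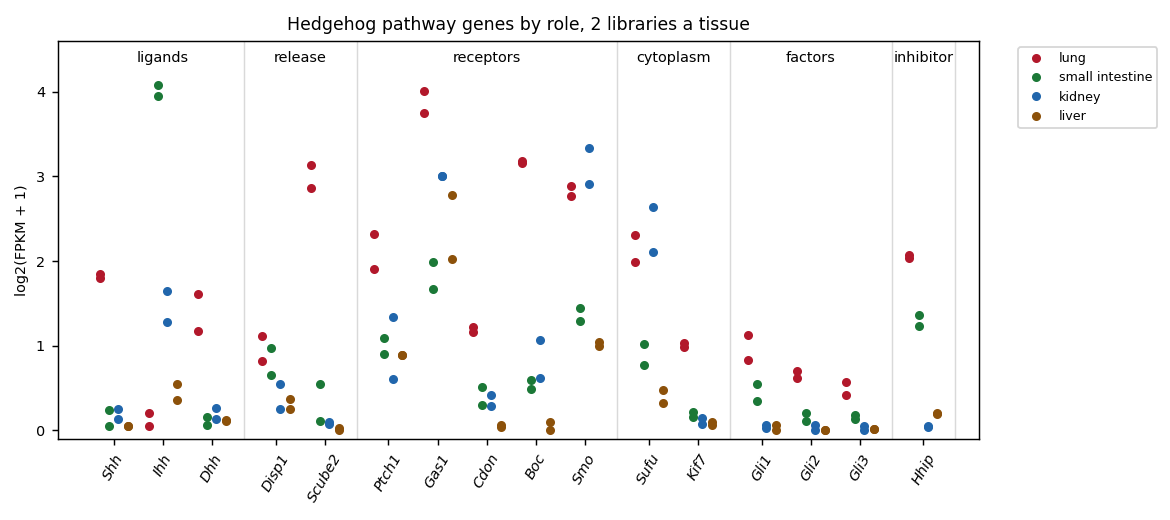
Level of Gli1, Hhip and other hedgehog pathway genes as log2(FPKM + 1) (vertical axis) in the 2 libraries of each tissue (coloured points), ordered by role from ligands to the inhibitor Hhip. Shh and Dhh are highest in lung and Ihh in small intestine, and Gli1, Gli2 and Gli3 stay low in all tissues.

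Among the other T-box genes, 13 were in the table and 4 were tested. Called higher in lung were Tbx1 (3.38, at 11.9 and 10.3 in lung and at most 0.421 elsewhere), Tbx6 (1.61) and Mga (1.14), of which Tbx1 alone was called after median-of-ratios scaling. None was called lower by limma or limma-voom, and 0 were lower at an unadjusted p under 0.05. Tbx21, the T-box factor of T helper cells, was tested and not called (0.82), and the other 9 genes in the table were under the filter. Of the 4 tested, 3 (Tbx1, Tbx6 and Tbx21) reached the filter in lung alone, so that a difference was bound to appear.

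Of 18 other Wnt ligands, 10 were tested and 6 called higher in lung, 3 after scaling, with the largest differences for Wnt3a (2.23), Wnt7a (2.02), Wnt11 (1.90) and Wnt4 (1.47). None was called lower by limma, and 0 were lower at an unadjusted p under 0.05 or by limma-voom. Of 17 Wnt receptors, modulators and targets, 14 were tested and 8 called higher, 5 after scaling. These were led by Nkd1, a target and inhibitor of Wnt signalling (4.21, at 36.2 and 35.0 in lung), Dkk3 (3.11), the R-spondin Rspo1 (2.87) and the receptor Fzd2 (2.38). None was called lower by limma or limma-voom, with 1 lower at an unadjusted p under 0.05.

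The BMP list had 19 genes, of which 17 were tested, 11 called higher in lung and 1 lower, with 9 and 1 after scaling. Smad6, an inhibitor induced by BMP signals, was at 38.7 and 54.2 in lung and at most 3.37 elsewhere (3.98 ± 0.21, limma adjusted p = 2.26e-06). Bmp6 (3.45), the receptor Bmpr2 (3.38) and the target Id1 (3.05) followed. Bmp7, at 9.92 and 7.88 in kidney and 0.866 and 0.40 in lung, was the gene called lower (-1.03). In the FGF10 axis, 9 of 10 genes were tested and 8 called higher, 6 after scaling. Fgf10, the mesenchymal ligand that drives branching, was at 2.78 and 3.59 in lung and at most 0.154 elsewhere (a log2 difference of 1.97 ± 0.10), and reached the filter in lung alone. Its targets Etv5 (3.33) and Spry1 (3.13), and Fgf7 (2.76) and Fgf18 (2.67), had the largest differences. None was called lower by limma, whereas Fgf9 was lower at an unadjusted p under 0.05 (-0.87) and was the 1 gene called lower by limma-voom.

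**Figure D4:**
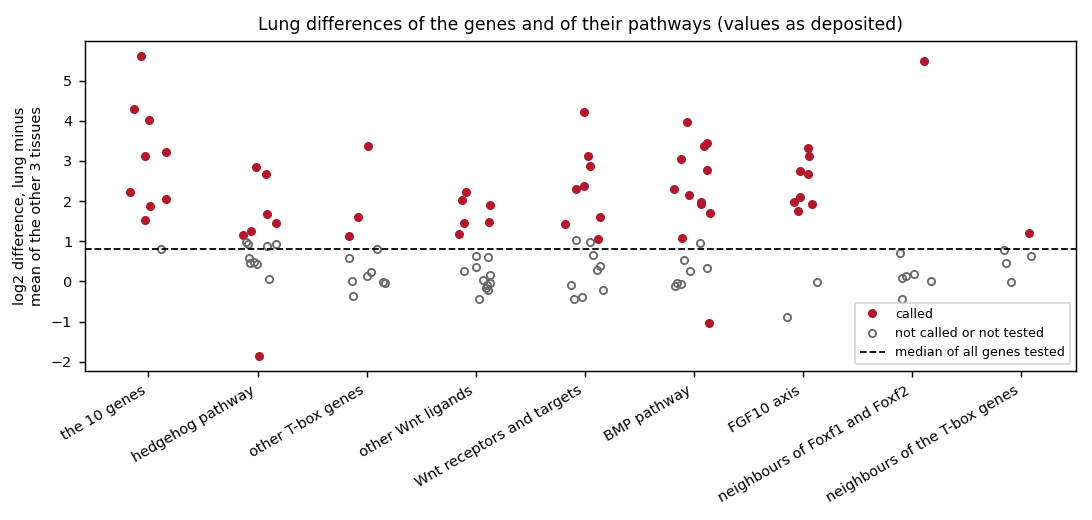
Log2 difference between lung and the mean of the other 3 tissues (vertical axis, values as deposited) for the 10 genes and for each gene of the 8 pathway and neighbour lists above 0 in any library, by list; filled points were called. Among the genes drawn Foxf1 and Fendrr are the highest points, and the dashed line is the median of all genes tested, 0.82.

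Together, the 8 pathway and neighbour lists held 105 genes in the table. Of the 73 tested, 44 were called higher in lung (60.3%) and 2 lower, and 28 higher (38.4%) and 3 lower after median-of-ratios scaling. The lists were chosen for lung development or as gene neighbours, with earlier results of these data known. Their share above the 40.7% and 14.6% of all genes therefore describes the lists and is no test of them. Genes that reached the filter in lung alone had to lie higher in lung, though not past the threshold for a call. They were 4 of the 10 tested in the hedgehog list, 5 of 10 among the Wnt ligands and 1 of 14 among Wnt receptors and targets. They were also 2 of 17 in the BMP list, 3 of 9 in the FGF10 axis, 3 of 4 among the other T-box genes and 2 of 9 among the 10 genes.

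Markers of several cell types moved with the 10 genes, and their part in the results was not tested. The counts below stand beside 40.7% of all genes tested that were called higher in lung. Of 10 lung fibroblast markers, 9 were called higher in lung (limma), 3 of the 10 having reached the filter there alone, with Mfap4 the largest (7.0). Their summed FPKM was 1779 to 2018 in lung, 404 to 457 in kidney, 387 to 470 in liver and 14.2 to 17.4 in small intestine. Inmt, a methyltransferase that liver and kidney also express, was the highest gene of that list. General fibroblast markers were called in 7 of 7 and summed to 435 to 475 in lung and at most 58.2 elsewhere, with Vim the highest. Endothelial markers were called in 8 of 8 and summed to 923 to 1159 in lung and at most 38.7 elsewhere, with Cldn5 the highest.

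Smooth muscle markers were at a like level in lung and small intestine. They summed to 256 to 260 in lung and 257 to 313 in small intestine, against 18.5 to 21.9 in kidney and 4.49 to 4.54 in liver, and Acta2 was the highest gene in lung. Cardiac muscle markers, which matter beside Tbx5, were called in 6 of the 6 tested, of which 4 reached the filter in lung alone, and summed to 249 to 256 in lung and at most 9.20 elsewhere. Myl7 was at 109 and 107 in lung. Nppa, an atrial hormone, was at 1.54 and 0.930 there, and Myh6 at 13.2 and 13.1. Mesothelial markers were called in 3 of 3 tested, 1 of them past the filter in lung alone, and summed to 53.1 to 83.5 in lung and at most 4.13 elsewhere, with Msln the highest and Wt1 under the filter.

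Lists for single tissues were read as a check of the labels. Alveolar type 2 markers, led by the surfactant gene Sftpc, were called higher in lung in 4 of 4, 1 of them past the filter in lung alone, and summed to at least 13194 there and at most 25.7 elsewhere. Of 7 pericentral hepatocyte markers, with Cyp2e1 the highest, the sum was 2768 to 3398 in liver and at most 578 elsewhere. Sinusoidal endothelial markers, the cells known for Wnt2 in liver, summed to 30.3 to 31.6 in liver and 10.6 to 11.6 in lung, with Clec4g at 20.9 and 16.6 in liver and at most 0.458 elsewhere. Hepatic stellate markers did not single out liver (4.96 to 5.02, with 57.7 to 62.0 in lung and 48.6 to 58.1 in small intestine, where Des, also a smooth muscle marker, was the highest gene). Intestinal mesenchyme markers did not single out small intestine either (14.4 to 19.2, with 38.9 to 39.8 in lung, where Pdgfra was the highest gene). The gut factor Nkx2-3, named after its values were seen, was at 9.05 and 5.77 in small intestine and at most 0.0485 elsewhere. Kidney stroma markers summed to 21.5 to 26.4 in kidney and 14.6 to 19.0 in lung. Ren1 made up most of the kidney sum, at 21.8 and 18.1 there and at most 0.0618 elsewhere. As a sum, the rest of the list was higher in lung than in kidney. After median-of-ratios scaling, the markers called higher in lung fell in number to 4 for smooth muscle and to 3 for alveolar type 2 cells. They were still 9, 7, 8, 6 and 3 for lung fibroblasts, general fibroblasts, endothelium, cardiac muscle and mesothelium. Over all genes tested, 14.6% were then called higher.

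The genes most like each member were found by the Euclidean distance of log2(FPKM + 1) over the 8 libraries, among the genes tested. Gli1, which did not pass the filter, was left out. With 4 tissues, such likeness describes a tissue pattern only. Closest to Tbx4 were Sfta3-ps (0.177), Sntn (0.226) and the atrial muscle gene Sln (0.294), and closest to Tbx5 were Gm19990 (0.182), Meox2 (0.247) and Tekt1 (0.259). Closest to Foxf1 were the B cell gene Ighd (0.906), Fendrr (1.10) and Cd79b (1.16), a further B cell gene, so the order lung, then small intestine, was also that of genes of blood cells. Foxf2 was closest to 5330417C22Rik (0.440), Spib (0.675) and Lat (0.748). Tbx3 was closest to Fgl2 (0.510), Nkg7 (0.997) and Irf8 (1.01), genes of immune cells.

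The nearest genes of the other members were of mixed function. Tbx2 was closest to Galnt18 (0.833), AU021092 (1.05) and Afap1l1 (1.11), and Bmp4 to Cers5 (1.02), Ccdc181 (1.07) and Tmem159 (1.12). Hhip was closest to Gm28523 (0.307), Hk2 (0.362) and Gm19585 (0.379). Wnt2 was closest to Mcc (0.572), Plxnc1 (0.586) and Tbx3os1 (0.782), the antisense gene of Tbx3. Among the members themselves, Pearson correlations over the 8 libraries, which share 4 tissues and are given as a description, were highest for Tbx4 with Tbx5 (1.0) and Foxf2 with Hhip (0.98), and lowest for Tbx3 with Wnt2 (0.30) and Wnt2 with Bmp4 (0.32).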

How the data were processed

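Polyadenylated RNA of 4 tissues, 2 libraries each, was sequenced. By the study's methods the authors selected reads by sample index with bbduk, mapped them to the Ensembl release 75 mouse genome with STAR (version 2.5.3a in the submitters' processing notes) and deposited FPKM values from the DESeq2 function fpkm. The counting program, its use of strand and its handling of reads with several matches are not given in the sources used here; exons of Gli1 overlap with Arhgap9 and Gm47200 over 6.55% of their bases, and those of the other members with other genes over at most 4.15%. FPKM divides by the library total, so a few very abundant transcripts lower all other genes of a library.

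The 8 columns were matched to samples by name. Exon lengths and coordinates came from GENCODE M21, in which 51844 symbols (99.3%) matched 1 gene. With these lengths, 94.5% to 96.1% of values up to 50 reads were whole within 0.02 reads, which gave the depth. Tests used limma 3.58.1 (all 8 libraries in 1 fit, eBayes with a trend) in R 4.3.3 on log2(FPKM + 1), with Benjamini-Hochberg adjustment over all genes tested, and were tested on simulated data. Limma-voom on recovered reads was an alternative, beside other pseudocounts, filters, scalings and left-out libraries. Folds of pooled reads are scaled for library depth, and their intervals are exact binomial. Other steps used Python 3.11.15 with pandas 2.3.3 and scipy 1.17.1.

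The 10 genes and all lists were chosen with earlier results of these data known. Named were all 10 genes and, from each pathway list, the up to 4 genes called with the largest difference in each direction. The hedgehog ligands, Ptch1, Gli2, Gli3, Fgf10 and gene neighbours were also named. So were the highest gene of each marker list and the 3 genes nearest to each member that passed the filter. Fgf9, Nppa, Myh6, Wt1, Nkx2-3 and Mfap4 were named after their values were seen. The result of 1 listed gene is left out.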

Additional observations from a re-analysis of the deposited data

How the results depend on the processing

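Over the 7 alternatives and the 8 left-out libraries, of the lung differences of the 10 genes against the mean of the others, their median and the counts of calls, 275 values stayed as they were in direction and call or, for counts, within 1.5 times, and 6 did not. None of these turned direction. In this tally Gli1 has a value only without the filter, and Tbx4 and Tbx5 have none with a lung library left out. Outside this tally, the difference of Bmp4 between lung and kidney changed sign, from 1.02 to -0.02, with median-of-ratios scaling. The median log2 difference of the 10 genes in lung (2.67) was 4.0 with a pseudocount of 0.1, 1.78 with median-of-ratios scaling and 3.28 with the same sum in each library. Hhip fell below the threshold with median-of-ratios scaling (0.90). Between kidney and liver, limma-voom on recovered reads called 5 genes in place of 2. It added Tbx3, Hhip and Wnt2. Leaving out 1 library gave 7 to 9 members called higher in lung than in the mean of the others. Without either lung library the count was 7, because Tbx4 and Tbx5 reach the filter in lung alone and then cannot pass it. Pathway genes called in lung were 46, and 30 to 49 with 1 library left out; they were 30 without lung replicate 2 and 31 without lung replicate 1, where fewer genes pass the filter, and the share of this in the change was not tested. Against kidney the members called were 6 without lung replicate 2. An arm left with 1 library is assumed to vary like the others.

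The replicate numbers are shared by the tissues, but the sources do not say that a number is a mouse. The correlation of the deviations of same-numbered libraries was between -0.22 and 0.05 over the 6 pairs of tissues, so the numbers were not used as pairs. With a replicate block, 9 members were called higher in lung and 46 pathway genes were called, as without it. Depth limits Gli1, Tbx4, Tbx5, Foxf2 and Wnt2 outside lung, where values of 0 to 3 reads are not told from the floor.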

Other observations

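3 listed genes differed between the libraries of a tissue far more than the 10 genes did, and were picked for this difference. Foxc1, a forkhead gene beside Foxf2, was at 1.09 and 4.63 in the kidney libraries and 4.80 and 0.537 in the lung libraries, but 4.91 and 5.42 in liver. Nog, which encodes the BMP antagonist Noggin, was at 0.193 and 2.18 in kidney, 0.451 and 3.60 in liver, and 3.56 and 0.142 in lung. The ligand Wnt3 was at 0 and 1.15 in kidney and 0.866 and 0.0523 in lung. The second library was the higher one in kidney and the lower one in lung for all 3 genes. None was called in lung (limma adjusted p = 0.875 for Foxc1, 0.647 for Nog and 0.244 for Wnt3). The cause was not tested.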
